A study of Arabidopsis thaliana with 12 samples.

Results

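The 47 genes described here are nuclear genes of Arabidopsis thaliana for proteins of the photosynthetic light reactions, taken from a list of gene identifiers that was drawn up with earlier results of these data known. They make up 47 of the 27416 gene rows of the count table and comprise 4 genes of the photosystem I antenna (LHCI), 9 of the main photosystem II antenna (LHCII), 5 of the minor photosystem II antenna, 12 of photosystem I, 10 of photosystem II, 5 of electron carriers and 2 of the plastid ATP synthase. RNA was sequenced from shoot apices of 3 genotypes with 4 libraries each: Col-0 wild type (WT), the ap2-12 mutant, and rAP2-VENUS #A6, which is represented by a single line. APETALA2 (AP2) is a transcription factor of flower development, and VENUS is a yellow fluorescent protein. The sources used here do not explain the letter r or say whether rAP2-VENUS plants retain the endogenous AP2 gene, nor where in AP2 the ap2-12 lesion lies. All plants were kept in long days (16 h light, 8 h dark) and sampled at a main stem height of 1 cm, and the protocol gives 15 apices, which is taken here as the number in a replicate. The replicates are described as independent and biological, so p-values measure the spread between such samples, and no hour of harvest is given.

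Light energy enters photosynthesis through chlorophyll-binding antenna proteins of the LHCA and LHCB families, which pass it to the reaction centres of photosystem I and photosystem II. Photosystem II draws electrons from water, the cytochrome b6f complex and plastocyanin carry them to photosystem I, ferredoxin-NADP reductase uses them to make NADPH, and the ATP synthase is driven by the proton gradient built up on the way. The antenna and many peripheral subunits are encoded in the nucleus and the reaction centre core in the plastid. Transcripts of the nuclear genes are known to be abundant in green tissue, to depend on light and chloroplast development, and in many cases to follow the time of day.

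AP2 was checked first. Levels are given in CPM, counts brought to a common library total after scaling with the TMM method. AP2 (AT4G36920) was at 92.8, 50.3, 42.3 and 44.4 CPM in WT replicates 1 to 4, at 20.6, 15.6, 17.3 and 15.5 CPM in ap2-12, and at 58.1, 46.6, 41.3 and 42.1 CPM in rAP2-VENUS. All ap2-12 libraries lay below all others. The label names an allele and does not say how it changes the level of AP2 RNA. Whether AP2 counts in rAP2-VENUS include reads of a transgene is not known. AP2 fell by 1.73 on the log2 scale in ap2-12 (adjusted p = 0.000302, SE 0.23), and its difference between rAP2-VENUS and WT was -0.28 (adjusted p = 0.898; edgeR's quasi-likelihood test with Benjamini-Hochberg adjustment over 18807 genes, as for all adjusted p-values below). Library totals ran from 9680133 to 15152704 counts. Of 8 inflorescence apex marker genes 7 passed the low-count filter, with a summed level of 443 to 643 CPM in WT, and CLV3, a stem cell marker, did not pass, with 26 counts over all libraries. The 210 plastid and mitochondrial gene rows held 0 counts, so the plastid-encoded core subunits were not measured.

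All 47 genes passed the low-count filter. Together they took 2.63, 3.00, 4.25 and 3.56% of the counts in WT replicates 1 to 4, 2.07, 2.43, 2.62 and 2.45% in ap2-12, and 2.92, 3.49, 3.35 and 3.61% in rAP2-VENUS. The share was therefore lower in every ap2-12 library than in every rAP2-VENUS library, while the lowest WT library and the highest ap2-12 library were nearly equal. Per kilobase of the longest annotated transcript, LHCB1.3 was the most abundant of the 47 in WT with a mean level of 4964 CPM per kb, followed by LHCB1.5 with 2862 and LHCA4 with 1322 CPM per kb. At the low end in WT were LHCB4.3 with 56.6, PETE1 with 61.8, LHCB2.3 with 78.5 and LHCB1.4 with 84.6 CPM per kb, so members of a protein family with the same role lay at both ends of the range.

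In ap2-12, genes of every part of the light reactions were expressed at a lower level than in WT. Of the 47 genes, 35 fell (74.5%) and 0 rose. Of all 18807 genes tested, 9.59% fell and 5.65% rose (15.2% called in either direction). All 47 log2 fold changes were negative. Their median was -0.54, against 0.001 over all genes tested, and they ran from -2.47 for LHCB1.4 to -0.16 for LHCB1.5, with SEs of 0.07 to 0.41. In 32 of the 47, all 4 ap2-12 libraries lay below all 4 WT libraries, against 11% of all genes tested. Only LHCA2, LHCB1.1, LHCB1.4 and LHCB4.3 fell by at least 2-fold. The 12 genes that did not pass the test were LHCA1, LHCA4, LHCB1.5, LHCB2.3, LHCB4.2, PSAE2, PSAG, PSAN, PSBO1, PSBR, PSBY and PSBW. With the replicate number as a block, 8 of these 12 also passed, with log2 fold changes of -0.30 to -0.50 (LHCA4, LHCB4.2, PSAG, PSAN, PSBO1, PSBR, PSBY and PSBW), and DESeq2 called 5 of the 8 (LHCB4.2, PSAG, PSBO1, PSBY and PSBW). Over all genes the block called 5419 of 18807, against 2866 without it, so added calls were not particular to these genes. Compared within each replicate number, 45, 46, 47 and 47 of the genes were lower in ap2-12 than in WT for numbers 1 to 4. The median log2 ratios were -0.39, -0.41, -0.69 and -0.62. These are comparisons of single libraries, and the share of all genes in the same direction was not counted. The numbers did not pair the libraries throughout, with a correlation across genes of -0.01 for number 2. In bulk samples such as these, fewer cells of a type and less RNA per cell cannot be told apart.

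**Figure D1:**
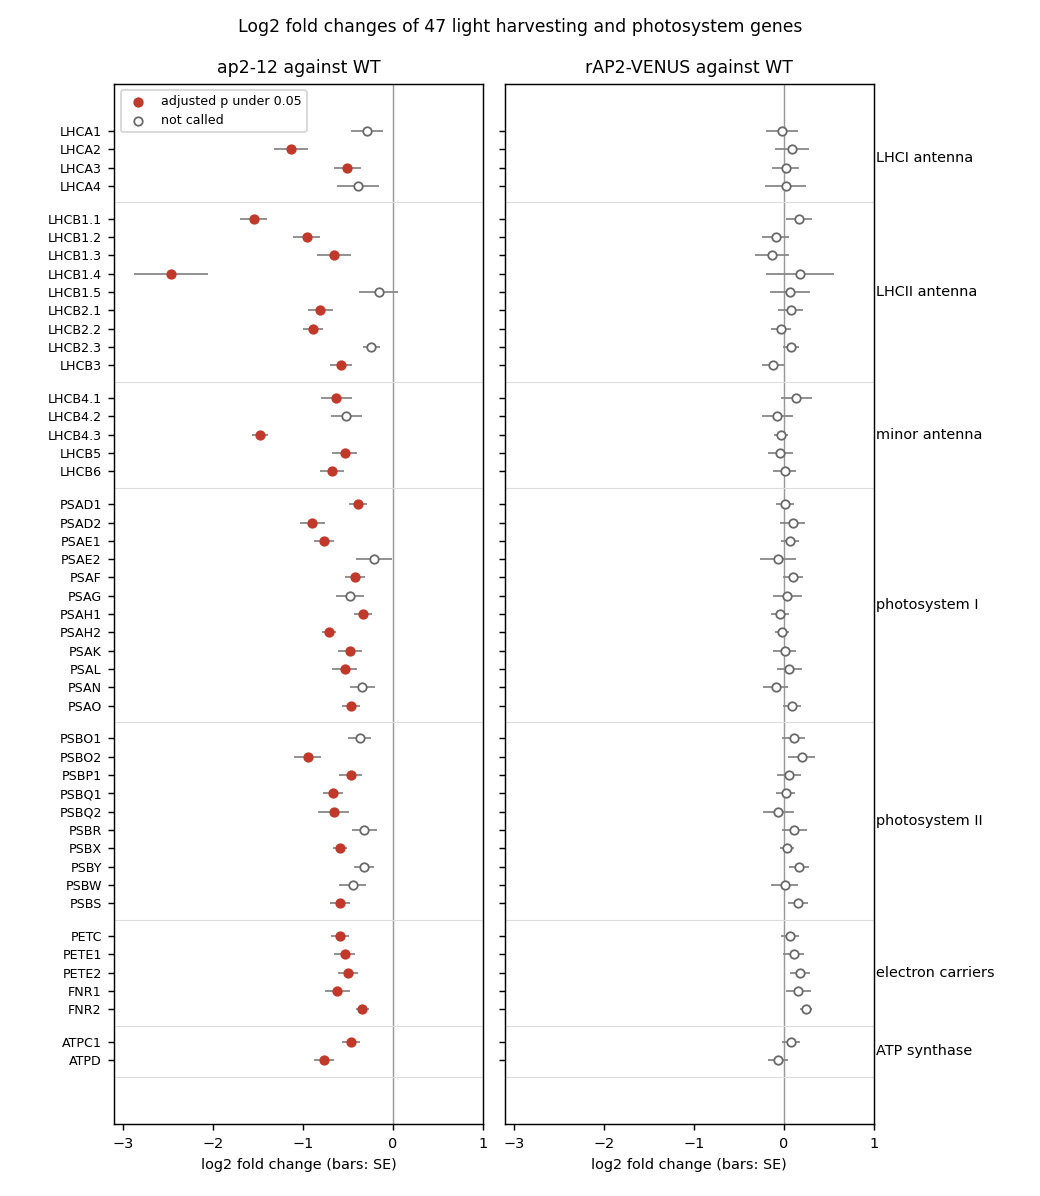
Log2 fold change (x axis) of each of the 47 genes (rows, grouped by role) in ap2-12 against WT (left) and in rAP2-VENUS against WT (right), with bars of 1 SE on each side; filled red points have an adjusted p under 0.05 and open points do not. On the left all 47 points lie below 0 and 35 are filled, and on the right the points lie between -0.13 and 0.25 and 0 are filled.

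Of the 35 genes that fell, 24 kept an adjusted p under 0.05 when any of the 12 libraries was left out. The other 11 (LHCA3, LHCB1.3, LHCB4.1, LHCB5, PSAD1, PSAF, PSAH1, PSAK, PSAL, PSBP1 and PSBQ2) lost it in at least 1 omission, with adjusted p-values of at most 0.124. The omission of WT replicate 4 ended 11 of these calls, of WT replicate 3 ended 9, of WT replicate 2 ended 4, and of ap2-12 replicates 1 to 4 ended 7, 8, 5 and 6. The omission of rAP2-VENUS replicates 1, 3 and 4, which enter through the shared estimate of spread, ended 1, 1 and 2. A fit of the WT and ap2-12 libraries alone ended 6 of the 35 calls (LHCA3, LHCB1.3, LHCB5, PSAH1, PSAK and PSBQ2).

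**Figure D2:**
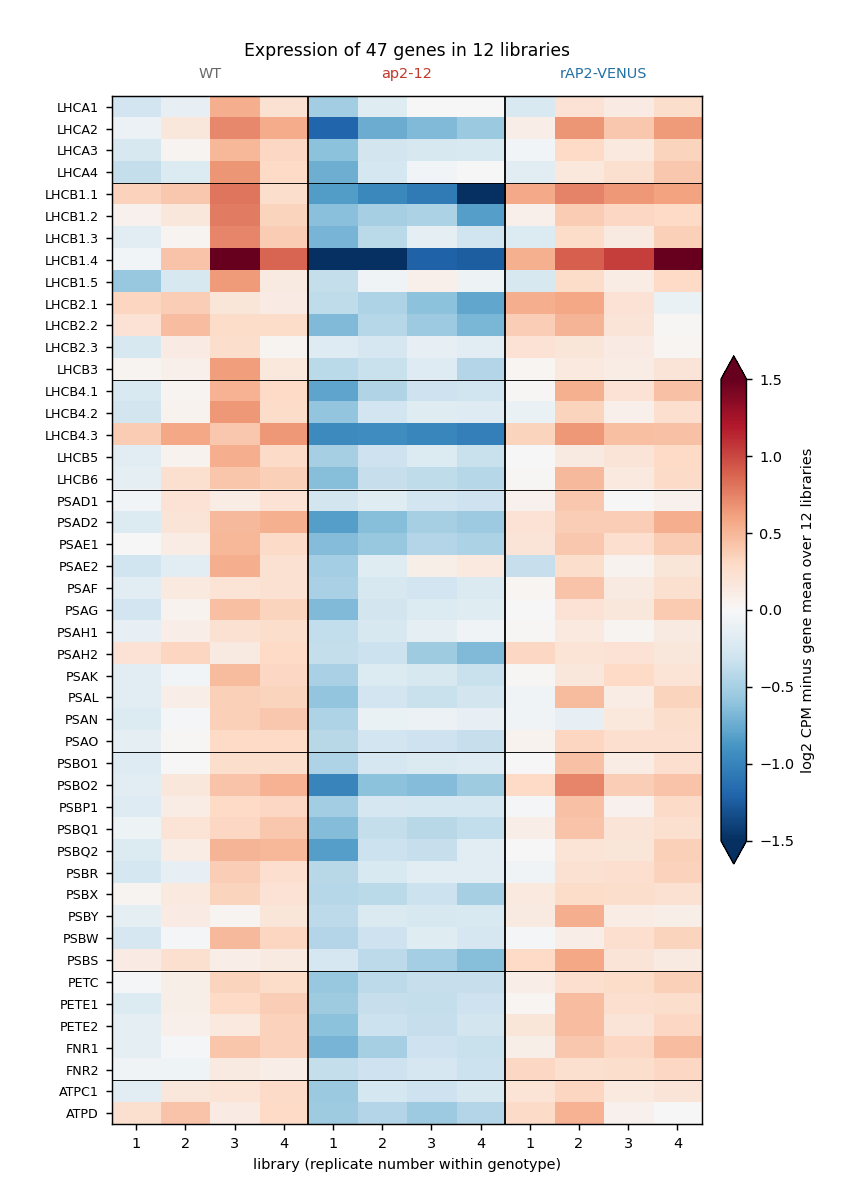
Level of each of the 47 genes (rows, by role, with lines between roles) in each of the 12 libraries (columns), as log2 CPM minus the gene's mean over the 12 libraries; red is higher, blue is lower and colours stop at 1.5 in each direction. The 4 ap2-12 columns are blue for nearly every gene, and for most genes the replicate 1 column is paler or bluer than the other columns of the same genotype.

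The LHCI antenna forms a belt of LHCA1 to LHCA4 at the side of photosystem I. In ap2-12, 2 of its 4 genes fell. The summed level of the 4 was 3370 to 6216 CPM in the WT libraries, 2562 to 3844 CPM in ap2-12 and 3747 to 5330 CPM in rAP2-VENUS. LHCA2 (AT3G61470) was at 431, 517, 756 and 674 CPM in WT replicates 1 to 4, at 202, 274, 290 and 311 CPM in ap2-12, and at 491, 729, 606 and 712 CPM in rAP2-VENUS. The ap2-12 libraries were the lowest 4, and LHCA2 fell by 1.14 on the log2 scale (adjusted p = 0.00149, SE 0.19). LHCA1 (AT3G54890), whose protein pairs with that of LHCA4, was at 1086, 1214, 1929 and 1550 CPM in WT, at 924, 1166, 1318 and 1329 CPM in ap2-12, and at 1134, 1536, 1441 and 1594 CPM in rAP2-VENUS. The WT and ap2-12 libraries overlapped, and the log2 fold change was -0.29 with an adjusted p of 0.339. LHCA4 (AT3G47470) was at 1193, 1327, 2432 and 1894 CPM in WT, at 925, 1274, 1493 and 1537 CPM in ap2-12, and at 1364, 1711, 1809 and 2038 CPM in rAP2-VENUS, with a log2 fold change of -0.39 (adjusted p = 0.293). LHCA3, the partner of LHCA2, fell by 0.51 on the log2 scale (adjusted p = 0.0386), from 883 ± 191 CPM in WT to 619 ± 73.4 CPM in ap2-12 (SD, n = 4 each).

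The LHCII antenna consists of trimers of LHCB1, LHCB2 and LHCB3 proteins, and LHCB1 alone has 5 genes in 2 clusters. Of its 9 genes 7 fell in ap2-12. The summed level was 11153 to 19438 CPM in WT, 8111 to 10464 CPM in ap2-12 and 11952 to 15373 CPM in rAP2-VENUS. The 5 LHCB1 genes spanned the whole range of change found among the 47. LHCB1.4 (AT2G34430) was at 58.5, 81.3, 191 and 111 CPM in WT replicates 1 to 4, at 8.1, 20, 26 and 25.6 CPM in ap2-12, and at 87.2, 112, 124 and 178 CPM in rAP2-VENUS. Every ap2-12 library was lower than any of the other genotypes, and LHCB1.4 fell by 2.47 on the log2 scale, or 5.55-fold (adjusted p = 0.00129, SE 0.41). LHCB1.5 (AT2G34420), its neighbour on chromosome 2, was at 1938, 2424, 4455 and 3145 CPM in WT, at 2230, 2770, 3012 and 2720 CPM in ap2-12, and at 2425, 3472, 3109 and 3533 CPM in rAP2-VENUS. The groups overlapped: ap2-12 was above WT for replicate numbers 1 and 2 and below it for 3 and 4. Its log2 fold change was -0.16 (adjusted p = 0.688, SE 0.22, 95% interval -0.63 to 0.32), and it turned to 0.11 (adjusted p = 0.677) without WT replicate 3, the library with its highest value.

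The LHCB1.4 and LHCB1.5 genes lie head to head, with 1038 bases between their annotated starts. LHCB1.5 occupies chr2:14522524-14523568 on the minus strand and LHCB1.4 chr2:14524607-14525918 on the plus strand (RefSeq annotation of TAIR10.1). As counts of LHCB1.4 in percent of those of LHCB1.5, the libraries stood at 3.02, 3.35, 4.3 and 3.54% in WT, at 0.363, 0.721, 0.862 and 0.941% in ap2-12 and at 3.60, 3.24, 4.00 and 5.03% in rAP2-VENUS. The pair was chosen for its fold changes, so these shares are a description. The 250 bases before each start are printed because these neighbours had the most negative and the most positive fold change of the 47 genes. They are chr2:14524357-14524606 (plus strand) for LHCB1.4 and chr2:14523569-14523818 (minus strand) for LHCB1.5, and capitals mark a match to the CCA1-binding site AAAAATCT, a sequence bound by the morning clock factors CCA1 and LHY.

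LHCB1.4: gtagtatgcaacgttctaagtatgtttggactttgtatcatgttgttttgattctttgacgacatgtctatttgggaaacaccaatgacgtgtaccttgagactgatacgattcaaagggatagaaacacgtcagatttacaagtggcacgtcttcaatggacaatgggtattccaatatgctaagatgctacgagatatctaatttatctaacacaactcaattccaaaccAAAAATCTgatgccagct
LHCB1.5: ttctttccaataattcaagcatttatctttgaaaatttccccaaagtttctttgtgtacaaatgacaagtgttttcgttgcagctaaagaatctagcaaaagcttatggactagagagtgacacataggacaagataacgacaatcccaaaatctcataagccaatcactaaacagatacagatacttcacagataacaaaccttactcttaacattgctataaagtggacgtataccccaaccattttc

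The other LHCB1 cluster, on chromosome 1, holds LHCB1.2, LHCB1.1 and LHCB1.3 (LHCB1.1 is described in full here because of its size of change, seen in the data). LHCB1.1 (AT1G29920) was at 1396, 1451, 1915 and 1318 CPM in WT, at 612, 562, 524 and 375 CPM in ap2-12, and at 1627, 1829, 1721 and 1669 CPM in rAP2-VENUS. All ap2-12 libraries lay far below all others, and LHCB1.1 fell by 1.55 on the log2 scale, or 2.93-fold (adjusted p = 2.75e-05, SE 0.15). LHCB1.2 fell by 0.96 (adjusted p = 0.000759, SE 0.15) and LHCB1.3 by 0.66 on the log2 scale (adjusted p = 0.0358, SE 0.19). LHCB1.3 (AT1G29930), the most abundant of the 47 genes, was at 4462, 5162, 8298 and 6500 CPM in WT and at 3082, 3796, 4533 and 4063 CPM in ap2-12. Its lowest WT library lay below its highest ap2-12 library, and its call was among those lost when libraries were left out (adjusted p of 0.0871 without WT replicate 3 and 0.0902 without WT replicate 4). The coding sequences of these 3 genes were alike at 95.6 to 96.4% of positions. No stretch of 150 bases, the read length, was shared between their annotated transcripts, so an error-free read belongs to a single copy, but counts of such close copies stay uncertain where reads were aligned with mismatches. Coding positions 25 to 84 are printed to show how the copies are told apart, with the 8 positions at which any copy differs in capitals.

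LHCB1.1: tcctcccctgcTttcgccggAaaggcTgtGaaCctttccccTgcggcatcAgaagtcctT
LHCB1.2: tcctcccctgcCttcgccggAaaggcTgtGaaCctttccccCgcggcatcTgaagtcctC
LHCB1.3: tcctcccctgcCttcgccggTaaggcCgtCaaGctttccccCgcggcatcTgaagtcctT

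LHCB1.1 and LHCB1.3 also lie head to head, with 1915 bases between their starts. Their 250 bases before the start are printed to set this pair beside the pair on chromosome 2, for LHCB1.1 chr1:10475970-10476219 (minus strand) and for LHCB1.3 chr1:10477635-10477884 (plus strand), with the same motif in capitals. As on chromosome 2, the copy with the more negative fold change holds the match and its neighbour has no match in this window. LHCB1.2, which fell more than LHCB1.3, has no match either, so this describes the pairs and no more.

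LHCB1.1: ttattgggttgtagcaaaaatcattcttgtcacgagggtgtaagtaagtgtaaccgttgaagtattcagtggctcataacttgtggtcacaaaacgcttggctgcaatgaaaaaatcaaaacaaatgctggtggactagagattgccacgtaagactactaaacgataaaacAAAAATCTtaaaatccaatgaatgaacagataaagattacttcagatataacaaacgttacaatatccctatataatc
LHCB1.3: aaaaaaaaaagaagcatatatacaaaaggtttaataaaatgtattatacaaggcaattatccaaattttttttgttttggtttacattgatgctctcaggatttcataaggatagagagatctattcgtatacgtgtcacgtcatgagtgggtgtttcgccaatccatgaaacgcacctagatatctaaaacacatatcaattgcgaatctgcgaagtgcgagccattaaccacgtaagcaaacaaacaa

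Of the other LHCII genes, LHCB2.1 (AT2G05100) was at 504, 522, 459 and 440 CPM in WT replicates 1 to 4, at 309, 294, 263 and 235 CPM in ap2-12, and at 589, 606, 469 and 377 CPM in rAP2-VENUS. No ap2-12 library overlapped with the others, and LHCB2.1 fell by 0.81 on the log2 scale (adjusted p = 0.00228, SE 0.14). LHCB2.2 fell by 0.89 (adjusted p = 0.000165), and LHCB3, the gene of a subunit that links trimers to photosystem II, fell by 0.58 (adjusted p = 0.00645). LHCB2.1 and LHCB2.2 shared 3 windows of 150 bases, so a small part of their reads cannot be assigned to either. LHCB2.3, whose mean level was 115 ± 16.2 CPM in WT against 98.1 ± 3.63 CPM in the mutant (SD, n = 4 each), had a log2 fold change of -0.24 and did not pass the test (adjusted p = 0.117).

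**Figure D3:**
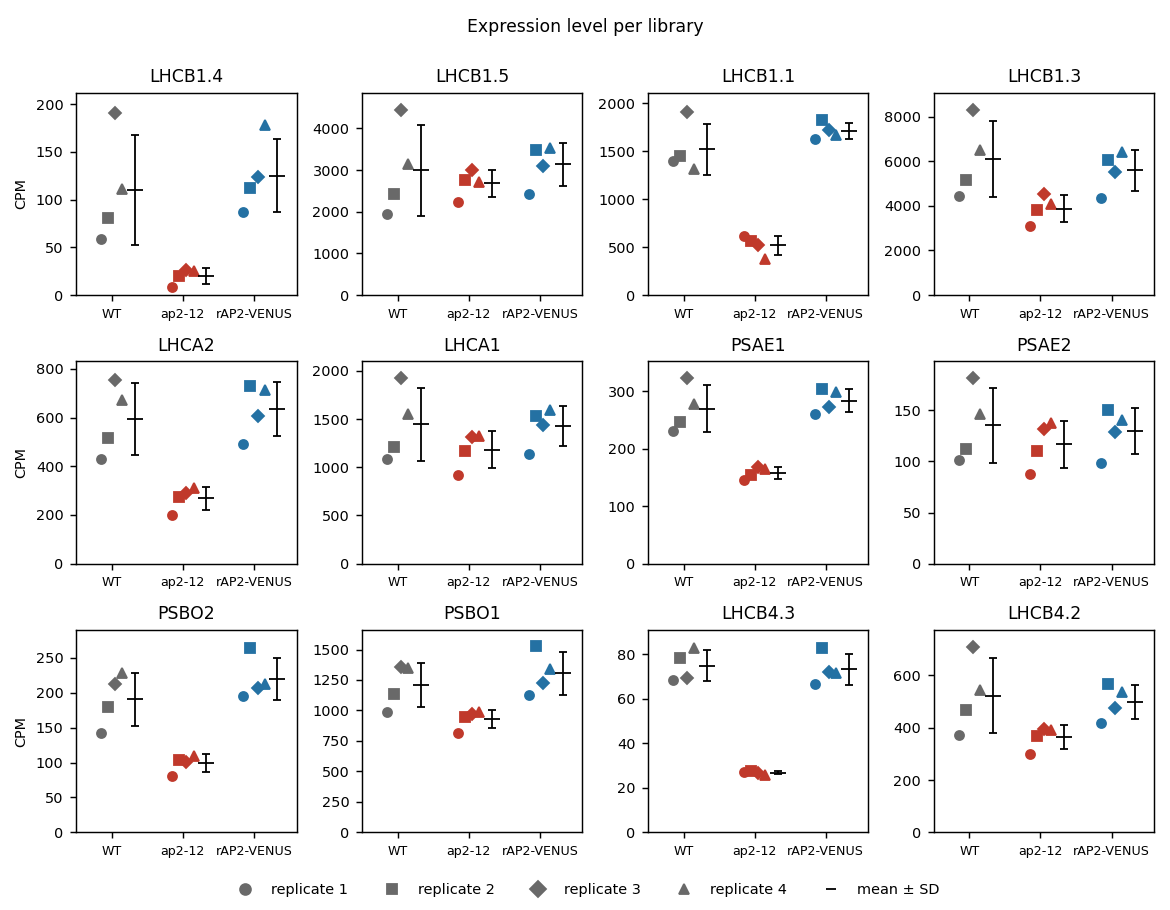
Level in CPM (y axis, from 0) of 12 genes in each library of WT, ap2-12 and rAP2-VENUS, with a marker shape for each replicate number and the mean ± SD of 4 libraries beside the points. LHCB1.4, LHCB1.1, LHCA2 and LHCB4.3 have all ap2-12 libraries below all others, while LHCB1.5, LHCA1 and PSAE2 overlap between WT and ap2-12.

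The minor antenna proteins LHCB4 (CP29), LHCB5 (CP26) and LHCB6 (CP24) sit as monomers between the LHCII trimers and the photosystem II core. In ap2-12, 4 of the 5 genes fell. LHCB4.3 (AT2G40100), the scarcest LHCB4 gene, was at 68.5, 78.4, 69.5 and 82.8 CPM in WT, at 27.1, 27.6, 26.8 and 25.8 CPM in ap2-12, and at 66.4, 82.8, 72.1 and 71.4 CPM in rAP2-VENUS. The ap2-12 libraries were close to each other and far below the rest, and LHCB4.3 fell by 1.48 on the log2 scale, or 2.79-fold (SE 0.09), with the smallest adjusted p of the 47 genes (3.91e-07). LHCB4.2 (AT3G08940) was at 372, 468, 709 and 543 CPM in WT, at 298, 370, 396 and 393 CPM in ap2-12, and at 419, 566, 476 and 537 CPM in rAP2-VENUS. WT and ap2-12 overlapped for LHCB4.2, and its log2 fold change of -0.52 (SE 0.17) did not pass the test (adjusted p = 0.0645). LHCB6 fell by 0.68 (adjusted p = 0.00382), LHCB4.1 by 0.63 (adjusted p = 0.0241) and LHCB5 by 0.54 on the log2 scale (adjusted p = 0.0184).

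Among the 12 photosystem I genes 9 fell in ap2-12, with a median log2 fold change of -0.48 over the 12. PSAD2 (AT1G03130) encodes a stromal subunit at the ferredoxin docking site. It was at 135, 178, 219 and 225 CPM in WT, at 87.9, 99.9, 110 and 107 CPM in ap2-12, and at 181, 201, 201 and 227 CPM in rAP2-VENUS. Levels in ap2-12 stayed below the other genotypes, and PSAD2 fell by 0.90 on the log2 scale (adjusted p = 0.00106, SE 0.14). PSAE1 (AT4G28750), for another stromal subunit, PsaE, was at 230, 246, 323 and 278 CPM in WT, at 146, 154, 168 and 165 CPM in ap2-12, and at 261, 303, 272 and 298 CPM in rAP2-VENUS. It fell by 0.77 on the log2 scale (adjusted p = 0.000351, SE 0.11), and again the ap2-12 libraries stood apart. PSAE2 (AT2G20260), the other PsaE gene, was at 101, 112, 182 and 146 CPM in WT, at 87.4, 110, 132 and 138 CPM in ap2-12, and at 98.4, 150, 129 and 141 CPM in rAP2-VENUS. The genotypes overlapped, with a log2 fold change of -0.21 (adjusted p = 0.533, SE 0.20).

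PSAG (AT1G55670), a membrane subunit at the LHCI side, was at 249, 315, 415 and 385 CPM in WT, at 192, 252, 263 and 268 CPM in ap2-12, and at 305, 353, 343 and 401 CPM in rAP2-VENUS. The lowest WT library lay within the ap2-12 range, and the log2 fold change of -0.48 did not pass the test (adjusted p = 0.0575). PSAH2 fell by 0.71 (adjusted p = 0.000122, SE 0.08), PSAL by 0.54 (adjusted p = 0.0201) and PSAO by 0.47 on the log2 scale (adjusted p = 0.00787). These 3 encode subunits on the side of photosystem I where LHCII can dock, and PSAH1, the other gene for PsaH, fell by 0.33 (adjusted p = 0.036). PSAF, a subunit that binds plastocyanin, fell by 0.42 (adjusted p = 0.0252). PSAK and PSAD1 fell by 0.48 and 0.39 on the log2 scale (adjusted p = 0.0261 and 0.0166). PSAN, the gene of a lumenal subunit, had a log2 fold change of -0.34 that did not pass the test (adjusted p = 0.144).

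Of the 10 photosystem II genes 6 fell in ap2-12. PSBO, PSBP and PSBQ proteins surround the manganese cluster that splits water. PSBO2 (AT3G50820) was at 142, 179, 213 and 228 CPM in WT, at 80.3, 104, 101 and 110 CPM in ap2-12, and at 195, 264, 206 and 213 CPM in rAP2-VENUS. The ap2-12 libraries did not overlap with the rest, and PSBO2 fell by 0.95 on the log2 scale (adjusted p = 0.00115, SE 0.15). PSBO1 (AT5G66570), the main gene for the same protein, was at 986, 1132, 1355 and 1350 CPM in WT, at 818, 944, 969 and 990 CPM in ap2-12, and at 1123, 1530, 1223 and 1344 CPM in rAP2-VENUS. Its highest ap2-12 library lay just above its lowest WT library, and the log2 fold change of -0.37 (SE 0.13) did not pass the test (adjusted p = 0.0638). PSBQ1 fell by 0.67 (adjusted p = 0.0017) and PSBP1 by 0.47 on the log2 scale (adjusted p = 0.0304).

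PSBQ2 (AT4G05180) was at 258, 322, 422 and 420 CPM in WT, at 168, 237, 234 and 264 CPM in ap2-12, and at 299, 342, 338 and 381 CPM in rAP2-VENUS. WT and ap2-12 overlapped by a narrow margin, and PSBQ2 fell by 0.66 on the log2 scale (adjusted p = 0.0194, SE 0.17), a call lost without WT replicate 3 (adjusted p = 0.052) or without WT replicate 4 (adjusted p = 0.0695). PSBR (AT1G79040), a small subunit of the oxygen-evolving side, was at 483, 532, 749 and 690 CPM in WT, at 436, 496, 519 and 516 CPM in ap2-12, and at 561, 680, 690 and 738 CPM in rAP2-VENUS. The groups overlapped for PSBR, and its log2 fold change was -0.32 (adjusted p = 0.153). PSBS (AT1G44575), whose protein is needed for the fast dissipation of excess light energy, was at 472, 510, 464 and 475 CPM in WT, at 363, 328, 303 and 278 CPM in ap2-12, and at 532, 644, 494 and 473 CPM in rAP2-VENUS. With no overlap between ap2-12 and the others, PSBS fell by 0.59 on the log2 scale (adjusted p = 0.00259, SE 0.11). Of 3 genes for small membrane subunits PSBX fell by 0.59 (adjusted p = 0.000247), while PSBW (-0.45, adjusted p = 0.0554) and PSBY did not pass the test. PSBY (AT1G67740) was at 276, 332, 315 and 346 CPM in WT, at 233, 263, 259 and 261 CPM in ap2-12, and at 336, 444, 329 and 324 CPM in rAP2-VENUS. Its ap2-12 libraries lay below all WT libraries, with a log2 fold change of -0.32 (adjusted p = 0.0697), the only gene of the 12 outside the test's threshold whose groups did not overlap.

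All 5 genes of electron carriers fell in ap2-12, by 0.34 to 0.62 on the log2 scale. FNR1 and FNR2 encode the leaf forms of ferredoxin-NADP reductase. FNR1 (AT5G66190) was at 174, 189, 259 and 245 CPM in WT, at 119, 137, 156 and 153 CPM in ap2-12, and at 206, 256, 240 and 266 CPM in rAP2-VENUS. Without overlap between ap2-12 and the other genotypes, FNR1 fell by 0.62 on the log2 scale (adjusted p = 0.00973, SE 0.14). FNR2 (AT1G20020) was at 182, 181, 208 and 203 CPM in WT, at 148, 152, 159 and 151 CPM in ap2-12, and at 235, 223, 227 and 235 CPM in rAP2-VENUS. The 3 genotypes did not overlap at all for FNR2, which fell by 0.34 on the log2 scale in ap2-12 (adjusted p = 0.00425, SE 0.07). PETE2 (AT1G20340), the main gene for plastocyanin, was at 410, 474, 499 and 571 CPM in WT, at 293, 360, 353 and 371 CPM in ap2-12, and at 509, 623, 513 and 560 CPM in rAP2-VENUS. It fell by 0.50 on the log2 scale (adjusted p = 0.00973, SE 0.11), with all ap2-12 libraries below the rest. PETE1, the other plastocyanin gene, fell by 0.54 (adjusted p = 0.0104), and PETC, for the Rieske iron-sulphur protein of the cytochrome b6f complex, fell by 0.59 (adjusted p = 0.00119).

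Both plastid ATP synthase genes of the set fell in ap2-12. ATPD (AT4G09650), for the delta subunit, was at 132, 151, 122 and 138 CPM in WT, at 77.6, 82.6, 76.7 and 82.2 CPM in ap2-12, and at 136, 160, 117 and 111 CPM in rAP2-VENUS. Its ap2-12 libraries were well below all others, and ATPD fell by 0.77 on the log2 scale (adjusted p = 0.000447, SE 0.11). ATPC1 (AT4G04640), for the gamma subunit, was at 203, 255, 261 and 278 CPM in WT, at 155, 189, 183 and 193 CPM in ap2-12, and at 262, 284, 251 and 260 CPM in rAP2-VENUS. It fell by 0.47 on the log2 scale (adjusted p = 0.00852, SE 0.10), again without overlap.

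Several subunits are encoded by 2 gene copies, and the ratio of the copies within a library does not depend on scaling. For 8 such pairs the log2 ratio of counts was compared between genotypes with a two-sided exact permutation test of 4 against 4 libraries, whose smallest possible p is 0.0286. In ap2-12 against WT the largest difference was that of PSBO1 over PSBO2, with ratios of 2.56 to 2.80 in WT, 3.17 to 3.35 in ap2-12 and 2.52 to 2.66 in rAP2-VENUS on the log2 scale. PSAE1 over PSAE2 moved the other way, with 0.83 to 1.19 in WT, 0.26 to 0.74 in ap2-12 and 1.01 to 1.41 in rAP2-VENUS. PSAD1 over PSAD2 had ratios of 0.89 to 1.43 in WT and 1.48 to 1.82 in ap2-12. In these 3 pairs ap2-12 did not overlap with WT, and the differences of means were 0.57, -0.56 and 0.49 on the log2 scale, each with exact permutation p = 0.0286 and, adjusted over all 24 tests (8 pairs in 3 comparisons), p = 0.0762. In rAP2-VENUS against WT, 1 of the 8 pairs had an unadjusted p under 0.05 in this permutation test. It was LHCB4.1 over LHCB4.2, with 0.86 to 0.94 in rAP2-VENUS and 0.60 to 0.78 in WT (exact permutation p = 0.0286, adjusted p = 0.0762). None of the 24 tests passed 0.05 after adjustment, and with groups of this size the smallest unadjusted p bounds what they can show. In PSBO and PSAD the scarcer copy had the more negative fold change and in PSAE the more abundant copy. The ratios of PETE1 over PETE2 and PSBQ1 over PSBQ2 differed by -0.02 and -0.01 on the log2 scale (exact permutation p = 0.714 and 0.971).

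**Figure D4:**
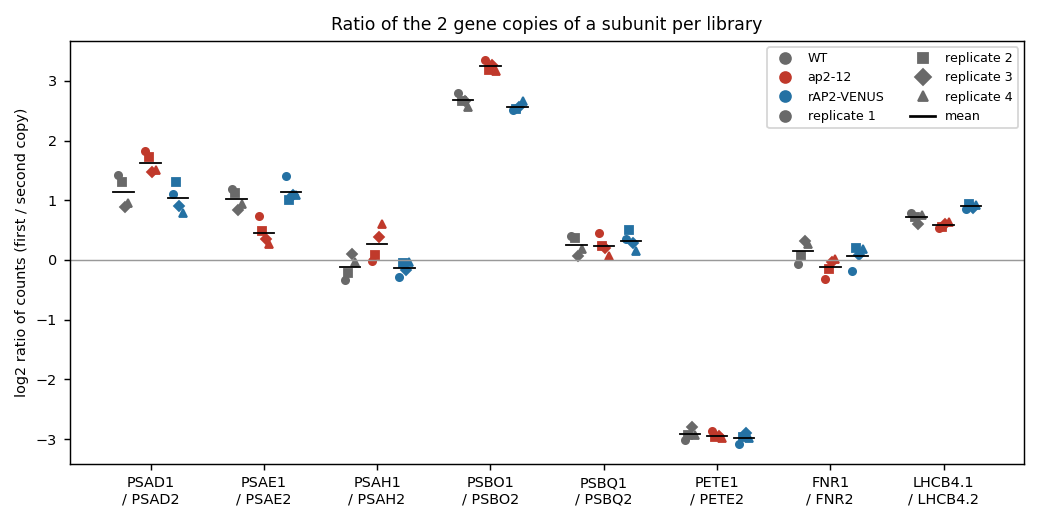
Log2 ratio of the counts of the 2 gene copies of a subunit (y axis) in each library for 8 pairs (x axis), coloured by genotype, with a marker shape for each replicate number and a line at the mean of 4 libraries. The ap2-12 points of PSBO1 over PSBO2 lie at 3.17 to 3.35, above the others, and those of PSAE1 over PSAE2 at 0.26 to 0.74, below the others.

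The promoters of PSAE1 and PSAE2 are printed because PSAE1 passed the test in ap2-12 and PSAE2 did not, a choice made after the values were seen. PSBO1 and PSBO2 had the larger shift of ratio and the same contrast, since PSBO2 passed and PSBO1 did not. Neither PSBO promoter held a match to the G-box or to any other motif of the search described below. They are chr4:14204062-14204311 (minus strand) for PSAE1 and chr2:8736484-8736733 (plus strand) for PSAE2, and capitals mark a match to the G-box CACGTG, a sequence bound by light-related bHLH and bZIP factors.

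PSAE1: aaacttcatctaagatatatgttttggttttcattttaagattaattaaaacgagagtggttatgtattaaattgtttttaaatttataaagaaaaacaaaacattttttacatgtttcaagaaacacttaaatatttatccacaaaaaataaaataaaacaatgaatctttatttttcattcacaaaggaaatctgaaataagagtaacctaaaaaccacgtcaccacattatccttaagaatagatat
PSAE2: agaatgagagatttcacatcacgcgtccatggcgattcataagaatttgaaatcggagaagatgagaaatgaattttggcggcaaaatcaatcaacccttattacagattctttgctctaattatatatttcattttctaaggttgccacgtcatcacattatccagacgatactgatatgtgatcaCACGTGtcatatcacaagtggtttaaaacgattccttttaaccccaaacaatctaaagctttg

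Over all 47 genes, 4 motifs known from light- and clock-regulated plant promoters were searched on both strands of the 250 bases before the start. The G-box CACGTG was found in 9 promoters (19.1%), against 6.58% of the 26709 promoters of protein-coding genes of the same length. The I-box GATAAG was found in 12 (25.5%, against 12.2%), the CCA1-binding site AAAAATCT in 5 (10.6%, against 6.74%) and the evening element AAAATATCT in 1 (2.13%, against 2.40%). Of the 9 genes with a G-box 6 fell in ap2-12, with a median log2 fold change of -0.66, and of the 38 without it 29 fell, with a median of -0.53. For the I-box the counts were 10 of 12 and 25 of 35, with medians of -0.55 and -0.54. For the CCA1-binding site they were 3 of 5 and 32 of 42, with medians of -0.47 and -0.54. Over the 47 genes this site therefore did not go with the more negative fold changes, unlike in the 2 LHCB1 pairs above. The 1 gene with an evening element fell. A match in these letters describes the sequence only.

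In rAP2-VENUS none of the 47 genes differed from WT in the edgeR test, against 118 of all 18807 genes tested (0.627%; 424 genes with the replicate number as a block). Of the 47, 1 had an unadjusted p under 0.05, and DESeq2 called 1 and limma-voom 0. The log2 fold changes ran from -0.13 to 0.25 with a median of 0.06 (0.001 over all genes tested), and 33 were positive. The 95% intervals of the single genes reached from -0.64 to 1.00, both bounds belonging to LHCB1.4, and those of the other 46 stayed within a 2-fold change in either direction. The gene with an unadjusted p under 0.05 was FNR2, which was also the only one whose rAP2-VENUS libraries all lay above all WT libraries (2.39% of all genes tested did). Its mean was 230 ± 6.17 CPM in rAP2-VENUS and 193 ± 13.8 CPM in WT (SD, n = 4 each), a log2 fold change of 0.25 (adjusted p = 0.156, SE 0.07, 95% interval 0.10 to 0.40). With the replicate number as a block, FNR2 passed the test (adjusted p = 0.0414), as it did with DESeq2 (adjusted p = 0.00579). The numbers paired these libraries only in part, since rAP2-VENUS replicates 2 and 4 correlated best with WT replicates 1 and 3. Next in order of p came PSBY, PETE2, PSBS, PSBO2 and FNR1, with log2 fold changes of 0.17, 0.18, 0.16, 0.20 and 0.16 and adjusted p-values of 0.823, 0.839, 0.859, 0.885 and 0.918.

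The direction of this comparison differed by replicate number. Within number 1, 43 of the 47 genes were higher in rAP2-VENUS than in WT, and within number 2, 45 were. Within number 3 only 7 were higher, and within number 4 there were 20, with median log2 ratios of 0.19, 0.26, -0.15 and -0.01 for numbers 1 to 4. FNR2 alone was higher in all 4. These are comparisons of single libraries, and the share of all genes in the same direction was not counted. The counts are therefore a description and may not be particular to these genes.

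Against ap2-12, 39 of the 47 genes rose in rAP2-VENUS and 0 fell. Of all genes tested 11.7% rose and 7.86% fell (19.6% called in either direction). The groups did not overlap in 41 of them, against 13.9% of all genes. The median log2 fold change was 0.59 (-0.012 over all genes tested), and values ran from 0.15 for PSAE2 to 2.65 for LHCB1.4 (adjusted p = 0.000558, SE 0.41). This comparison shares the ap2-12 libraries with that of ap2-12 and WT, so the 33 genes called in both are not separate evidence. All 10 photosystem II genes rose, by 0.44 to 1.15 on the log2 scale, including PSBO1 (0.49, adjusted p = 0.0155), PSBR (0.44, adjusted p = 0.0421), PSBY (0.50, adjusted p = 0.00663) and PSBW (0.46, adjusted p = 0.0421), which had not passed the test between ap2-12 and WT. PSAG (0.52, adjusted p = 0.0344) and LHCB2.3 (0.32, adjusted p = 0.0313) likewise passed here and had not in that comparison, a difference that was not itself tested. LHCB1.3 (0.53, adjusted p = 0.0735) and PSAH1 (0.29, adjusted p = 0.0534) passed the test between ap2-12 and WT but not here. LHCA1, LHCA4, LHCB1.5, LHCB4.2, PSAE2 and PSAN passed in neither, with LHCB1.5 at 0.22 (adjusted p = 0.531, SE 0.22). Of the 39, 30 kept the call when any library was left out and 9 (LHCA3, LHCB2.3, LHCB3, LHCB5, PSAG, PSAK, PSBQ2, PSBR and PSBW) lost it in at least 1 omission, with adjusted p-values of at most 0.116. Each omission of a library of ap2-12 ended 6 to 8 of these calls, of rAP2-VENUS replicates 2, 3 and 4 ended 6, 8 and 8, of rAP2-VENUS replicate 1 ended 1 and of WT replicate 4 ended 3.

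The 47 genes also differed between replicate numbers within the genotypes. In a fit with genotype and replicate number, 30 of the 47 (63.8%) differed between the 4 numbers, against 29.5% of all genes tested. Replicate 1 was the lowest library for 41 of the genes in WT, for 35 in ap2-12 and for 36 in rAP2-VENUS, and in all 3 genotypes for 31. The median deviation from a gene's genotype mean was -0.30 on the log2 scale in WT replicate 1, -0.18 in ap2-12 replicate 1 and -0.16 in rAP2-VENUS replicate 1. The highest library was not the same in each genotype, since WT replicate 3 was highest for 29 genes, ap2-12 replicate 4 for 17 and rAP2-VENUS replicate 2 for 27. In WT the ratio of replicate 3 to replicate 1 had a median of 1.43 and ran from 0.911 for LHCB2.1 to 3.26 for LHCB1.4.

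The 6 genes with the smallest p between replicate numbers were LHCA4 (adjusted p = 0.00408), LHCB1.4 (0.00557), PSBQ2 (0.00589), PSAG (0.00717), LHCA2 (0.00818) and LHCB2.1 (0.0088), whose values in each library are given above. The first 5 were lowest in replicate 1 of every genotype. LHCB2.1 was the only one of the 47 that was higher in replicate 1 than in replicate 4 in all 3 genotypes, while 32 were lower in replicate 1 in all 3. LHCB2.3 (adjusted p = 0.577), FNR2 (0.541) and PSAH2 (0.385) had the largest adjusted p-values. By role, all 4 LHCI genes differed between numbers and neither ATP synthase gene did.

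Clock genes moved with the replicate numbers too. LHY, a clock gene with a morning peak, was at 224, 100, 22.5 and 22.8 CPM in WT replicates 1 to 4, at 136, 53, 35.7 and 20.8 CPM in ap2-12, and at 94.3, 42.5, 34.4 and 12.7 CPM in rAP2-VENUS. FKF1, a blue light receptor gene with an afternoon peak, was at 0.729, 1.15, 17.5 and 16.3 CPM in WT, at 1.45, 5.83, 10.4 and 25.1 CPM in ap2-12, and at 4, 16.2, 20.6 and 68.5 CPM in rAP2-VENUS. LHY was highest and FKF1 lowest in replicate 1 of each genotype, the libraries in which most of the 47 genes were lowest. Of 12 clock genes, 11 differed between replicate numbers and 0 between ap2-12 and WT in the edgeR test (0 with an unadjusted p under 0.05, and 0 called by DESeq2 or limma-voom). With the replicate number as a block, 2 of the 12 differed between ap2-12 and WT (4 with an unadjusted p under 0.05). These were TOC1 and GI, named after their values were seen, with log2 fold changes of 0.35 and 0.27 (edgeR adjusted p = 0.0424 and 0.046). With the same block, 1 of the 12 differed between rAP2-VENUS and WT (7 with an unadjusted edgeR p under 0.05). Between rAP2-VENUS and ap2-12, 2 differed with the block (3 with an unadjusted edgeR p under 0.05). Without the block edgeR called 0 clock genes in either of these comparisons. The labels give no hour of harvest, and the part of the hour in these differences was not tested. A setting without the replicate 1 libraries of all genotypes was chosen after seeing the data. In it, 0 of the 47 genes and 1 of all genes differed between the remaining numbers, while 40 of the 47 fell in ap2-12. The count of all genes that fell there is not given, so the 40 cannot be set against a share of all genes. Single libraries also decided the count of 30. It was 4 without WT replicate 1, 17 without WT replicate 4 and 12 without ap2-12 replicate 1. It was 19 without ap2-12 replicate 4 and 16 without rAP2-VENUS replicate 1. Over all genes, 5548 differed between numbers with all libraries and 3019 without WT replicate 1. Without that library, the share among the 47 was therefore below that among all genes.

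**Figure D5:**
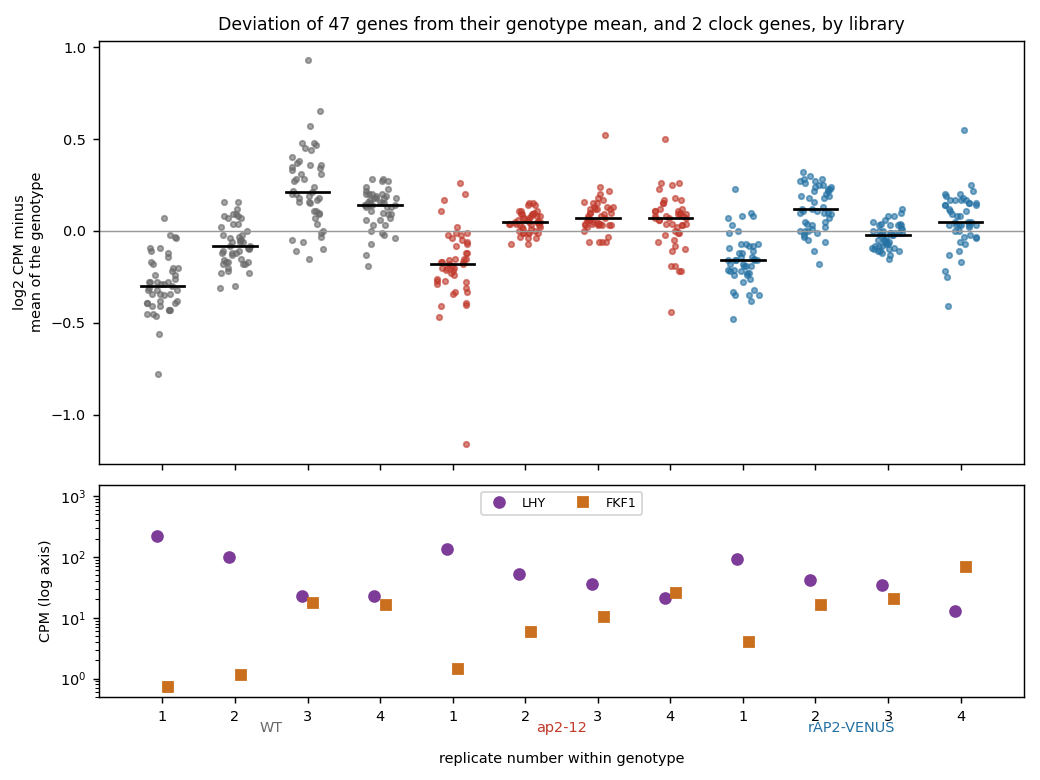
Top, deviation of each of the 47 genes (points) from its mean in the genotype, in log2 CPM, by library, with the median as a line; bottom, level of LHY and FKF1 in CPM on a log axis in the same libraries. The replicate 1 medians lie at -0.30, -0.18 and -0.16, the lowest of each genotype, where LHY is highest and FKF1 lowest.

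A list of 38 further nuclear genes for thylakoid proteins and their assembly was read out of the same fit, and 37 passed the low-count filter. In ap2-12 16 of the 37 fell and 0 rose, with a median log2 fold change of -0.36, and in rAP2-VENUS 0 of them differed from WT in the edgeR test (3 with an unadjusted p under 0.05), nor did DESeq2 or limma-voom call any. Against ap2-12, 17 rose in rAP2-VENUS. The summed level of the list was 3318 to 3884 CPM in WT and 2580 to 2730 CPM in ap2-12. LIL3.1, for an LHC-like protein that takes part in chlorophyll synthesis, was at 78.2, 90, 100 and 101 CPM in WT, at 50.4, 54.7, 48.1 and 52 CPM in ap2-12, and at 103, 103, 102 and 97.8 CPM in rAP2-VENUS. Without overlap LIL3.1 fell by 0.85 on the log2 scale in ap2-12 (adjusted p = 2.46e-05, SE 0.08). TIC62, whose protein tethers ferredoxin-NADP reductase to membranes, fell by 0.74 (adjusted p = 0.000104, SE 0.09), with 74.7 ± 7.44 CPM in WT and 44.6 ± 2.92 CPM in the mutant (SD, n = 4 each). LHCA6, a minor LHCI protein that links photosystem I to the NDH complex, fell by 1.32 (adjusted p = 0.000303, SE 0.18), with 20.4 ± 5.10 CPM in WT and 8.18 ± 1.68 CPM in the mutant (SD, n = 4 each). PSB28, a factor bound to photosystem II during assembly, fell by 0.96 (adjusted p = 0.00063, SE 0.14), with 51 ± 8.90 CPM in WT and 26.2 ± 4.06 CPM in the mutant (SD, n = 4 each). These 4 were picked as the called genes with the smallest p, and all called genes were lower, so their direction follows from the choice. ATPC2 (AT1G15700) and SEP2 (AT2G21970) of the list went the other way, with all ap2-12 libraries above all WT libraries. Their log2 fold changes of 0.33 and 0.24 did not pass the test (adjusted p = 0.0584 and 0.0829).

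Markers of several cell types moved between the same genotypes. Of 8 stomatal lineage and guard cell genes 6 fell in ap2-12, and their summed level was 79.3 to 97.8 CPM in WT, 47.1 to 57 CPM in ap2-12 and 77.1 to 97.2 CPM in rAP2-VENUS. Of 9 xylem and secondary wall genes 8 fell, with sums of 77.4 to 89.2 CPM in WT, 23 to 33.3 CPM in ap2-12 and 111 to 113 CPM in rAP2-VENUS. Of 10 tapetum and pollen genes that passed the filter 7 rose, with sums of 171 to 341 CPM in WT, 328 to 844 CPM in ap2-12 and 303 to 491 CPM in rAP2-VENUS. Among 7 inflorescence apex genes 5 fell, with sums of 443 to 643 CPM in WT, 367 to 518 CPM in ap2-12 and 440 to 524 CPM in rAP2-VENUS. ANT, the most abundant of them, did not fall, with means of 226 CPM in WT and 285 CPM in ap2-12. Its log2 fold change was 0.33 (adjusted p = 0.293), and WUS was not called either (-0.14, adjusted p = 0.629). Of 6 genes of sample handling stress edgeR called 0 (3 with an unadjusted p under 0.05), limma-voom 0, DESeq2 2 and edgeR with the replicate block 3, with sums of 43.3 to 74.6 CPM in WT and 63.3 to 155 CPM in ap2-12. Of 5 root hair genes, which an apex should lack, 3 were at 0 in every library. No gene of the stomatal, xylem, tapetum or apex lists was at 0 in all libraries. The part of these cell types in the lower level of the 47 genes was not tested.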

How the data were processed

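Poly(A) RNA of apices was sequenced from 12 libraries, 4 per genotype, as single reads of 150 bases, per the labels. The deposited values are whole-number counts of reads for each gene, not normalized. The submitters' processing notes list TopHat2, SAMtools, HTSeq and genome build TAIR10 and give no settings. Whether counting used strand is not stated, so overlapping antisense genes may not be separated. Library totals were 9680133 to 15152704 counts. Groups and replicate numbers came from the labels.

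Genes were kept with edgeR's filterByExpr (18807 of 27416), scaled by TMM and fitted over all 12 libraries with genotype as the only term (glmQLFit, glmQLFTest, 9 residual degrees of freedom; biological coefficient of variation 0.174). A call needed a Benjamini-Hochberg adjusted p, over all genes kept, below 0.05. Each SE was obtained from the log2 fold change and its F statistic. A second fit added the replicate number. Copy ratios used counts plus 0.5. The steps were tested on simulated counts. Tools were Python 3.11.15 with Biopython 1.88 and matplotlib 3.10.9, and DESeq2 1.42.0, limma 3.58.1 and edgeR 4.0.16 under R 4.3.3.

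The members and lists were chosen with earlier results of these data known. Per-library values are given for AP2 and, in each role, the members with the most negative and most positive fold change in ap2-12. They are also given for the 6 with the smallest p in rAP2-VENUS against WT and the 6 between replicate numbers. Both copies of the pairs with the largest and the next largest shift of ratio have them too. LHY and FKF1 were named with them. Of the wider thylakoid list, up to 4 called genes in each direction were named. Per-library values are given for LIL3.1, and means with SD for TIC62, LHCA6 and PSB28. LHCB1.1, LHCB1.3, the chromosome 1 sequences and the PSAE promoters were singled out after their values were seen. Promoters and coding sequences were read by gene identifier from RefSeq's TAIR10.1 assembly and annotation, in which all 47 members were found; protein sequences were not used here. Same-numbered libraries of rAP2-VENUS and WT deviated together from their group means (correlations across genes of 0.63, 0.23, 0.20 and 0.43). Each value was over 0.1, the limit above which numbers were taken to pair libraries. Even so, rAP2-VENUS replicates 2 and 4 correlated best with WT replicates 1 and 3. The main fit and the main copy-ratio tests did not use this pairing. It entered only in the settings with the replicate number as a block. Counts of same-genotype libraries differed by more than sampling noise (chi-square per degree of freedom 5.16 to 46.7). As alternatives, the replicate number entered as a block, scaling used upper quartiles or median of ratios, the test was limma-voom or DESeq2, the filter was dropped or set to at least 1 CPM in 4 libraries, fits held 2 genotypes only, ratios used a pseudocount of 5, and each library was left out.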

Additional observations from a re-analysis of the deposited data

Results flagged for a closer look

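In 141 groups of 4 libraries (47 genes in 3 genotypes), 7 values stood apart from the other 3 by Dixon's test, and chance flags about 1 group in 20. LHCA3 in ap2-12 replicate 1 was at 510 CPM, with the other ap2-12 libraries at 642 to 667 CPM. PSAN, PSBP1 and PSBY were also low in ap2-12 replicate 1, PSAN with 180 CPM (others 227 to 233 CPM), PSBP1 with 535 CPM (others 640 to 645 CPM) and PSBY with 233 CPM (others 259 to 263 CPM). LHCB3 in WT replicate 3 was high with 1746 CPM, against 1169 to 1262 CPM in the other WT libraries. PSAD1 and PSBY were high in rAP2-VENUS replicate 2, PSAD1 with 497 CPM (others 377 to 393 CPM) and PSBY with 444 CPM (others 324 to 336 CPM).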

How the results depend on the processing

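All 47 genes had a negative fold change in ap2-12 in every setting run, except LHCB1.5, which ranged from -0.32 to 0.11 on the log2 scale with single libraries left out and turned positive only without WT replicate 3. With the replicate number as a block, calls over all genes were 5419 for ap2-12 against WT, 424 for rAP2-VENUS against WT and 6215 for rAP2-VENUS against ap2-12, and the members called were 43, 1 and 45. Same-numbered libraries 1 to 4 correlated at 0.60, -0.01, 0.47 and 0.39 between ap2-12 and WT and at 0.54, 0.06, 0.05 and 0.56 between rAP2-VENUS and ap2-12. Not every value was over 0.1, so the numbers were not taken to pair libraries in these comparisons. Even so, ap2-12 replicates 1 and 3 correlated best with their own number in WT. The same held for rAP2-VENUS replicates 1 and 4 with their own number in ap2-12. DESeq2 gave 1 member and 340 genes for rAP2-VENUS against WT. Without all replicate 1 libraries, added after seeing the data, 54 genes were called for rAP2-VENUS against WT, and 0 members and 1 gene between replicate numbers. With each library left out in turn, members called ranged from 24 to 41 for ap2-12 against WT, were 0 throughout for rAP2-VENUS against WT, and ranged from 31 to 42 for rAP2-VENUS against ap2-12 and from 4 to 32 between numbers. Calls over all genes ranged from 2038 to 3143, from 55 to 155, from 2792 to 4097 and from 3019 to 5663 in the same order. The other settings kept the counts of members between 28 and 42 in the comparisons with calls. For copy ratios, 0 tests passed after adjustment with a pseudocount of 5 or with any library left out (lowest adjusted p 0.0653 to 0.152 by library, exact permutation test with a smallest possible p of 0.0286). With the replicate block the smallest possible exact p was 0.125, so no call could be made. The causes of these shifts were not tested. The lowest count of a member in any library was 106, for LHCB1.4 in ap2-12 replicate 1.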
